A study of Mus musculus with 33 samples.

Results

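The receptors for type I interferon, interferon-γ, and the cytokines that drive or restrain myeloid cells share 1 way of signalling: the receptor complexes have no enzyme activity of their own and rely on Janus kinases (JAKs) bound to the tails of their signalling chains. The genes described here encode 9 chains of such complexes: Ifnar1, Ifnar2, Ifngr1, Csf2rb, Csf3r, Il6ra, Il6st, Il10ra and Il13ra1. They were chosen by name from the 750 endogenous genes of a NanoString immune panel, and all 9 were among the 655 genes tested. To ask how BCL2 or JAK1/2 inhibition alters the bone marrow, the study treated female C57BL/6 mice aged 6 to 8 weeks by oral gavage for 2 days with the BCL2 inhibitor venetoclax (100) or the JAK1/2 inhibitor ruxolitinib (180), doses that the labels give in mg/ml and the study's methods in mg/kg. Venetoclax and its vehicle were given once a day, and ruxolitinib and its vehicle 2 times a day. Total bone marrow RNA was taken on days 1, 3 and 7 after treatment. Below, a day of a drug, such as day 1 of ruxolitinib, is counted after treatment and is not a day of dosing. Each drug had 3 mice per day and each vehicle 2 mice per day, and 3 mice were untreated, which made 33 mice in 13 groups.

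Binding of a cytokine brings the receptor chains together, and the attached kinases (Jak1, Jak2 and Tyk2 for these receptors) phosphorylate each other, the receptor and then STAT transcription factors, which enter the nucleus. Type I interferon signals through Ifnar1 with Tyk2 and Ifnar2 with Jak1, and interferon-γ through Ifngr1 with Jak1 and its partner Ifngr2 with Jak2. In bone marrow the granulocyte colony-stimulating factor receptor Csf3r and the common β chain Csf2rb support the production of neutrophils and other myeloid cells, while Il6ra with the shared signal transducer Il6st reads interleukin-6. Il10ra is the ligand-binding chain for the anti-inflammatory interleukin-10, and Il13ra1 pairs with Il4ra to bind interleukin-4 and interleukin-13. Ruxolitinib blocks Jak1 and Jak2 among these kinases, and venetoclax acts on the survival protein BCL2, outside this pathway.

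No receptor gene passed the test against vehicle on any day for either drug. On day 1 after ruxolitinib 11 of 23 genes induced by interferon passed the test as lower (4 to 14 over the other settings). Of all genes tested 2.75% passed on that day of ruxolitinib, and at most 0.153% on any other single day of either drug. With so few receptors, an absence of calls is near those shares. Receptors did differ between the mice of day 7 and those of day 1, as did 46% of all genes tested. Over the drug and vehicle groups of each day, Csf2rb, Csf3r, Il6ra and Il6st were lower on day 7 than on day 1, and Ifnar2 and Ifngr1 were higher. The Ifngr1 call was lost in 3 of 11 other settings and the Il6st call in 1. In the vehicle groups alone the calls of Csf2rb, Il6st and Ifngr1 were lost. The 1 untreated mouse measured beside the day 7 groups lay on the same side as those groups for each of the 6 genes.

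A value below is a normalised count, which is the count of the gene's barcodes in 1 mouse divided by that mouse's housekeeping factor. The total over endogenous genes ranged from 18056 to 466096 counts per mouse with a median of 158944, and 2 mice were under 30000 (venetoclax day 1 replicate 1 and ruxolitinib day 3 replicate 1). A gene counted as detected when it exceeded background, the mean plus 2 SD of the 8 negative control probes of that mouse. Ifnar1, Ifnar2, Ifngr1, Csf2rb, Csf3r and Il6ra were detected in all 33 mice, Il10ra in 32, Il13ra1 in 30 and Il6st in 29. The file headers name 3 days, each for 11 mice with 1 untreated mouse among them, and such a set is called a run here. Whether each set was 1 run of the instrument was not checked. A difference between days cannot be told apart from one between these runs. The header of the run that the labels place on day 3 reads Day 2, and the labels were followed here. The neutrophil genes of the panel were plentiful, as in whole marrow, with a summed normalised count of 10 markers of 57752 to 122862 per mouse. In each sum of markers the most plentiful gene weighs most. By median over the 33 mice this was Prg2 (294) for eosinophil, basophil and mast cells and Runx1 (83.7) for stem and progenitor cells. Probes differ in efficiency, so levels are compared between groups and not between genes. In total marrow RNA, fewer cells that carry a receptor and less RNA per cell cannot be told apart. Each sample is 1 mouse, and the p-values measure the spread between these mice.

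Across the 13 groups the highest group mean was 1.37 times the lowest for Ifnar1 and 2.75 times for Ifnar2, and the other 7 receptors lay between these. When the groups were put in order of their means, neighbours in the order overlapped almost everywhere. Ifnar1, Ifngr1, Csf2rb, Il6st and Il13ra1 had no pair of neighbouring groups whose mice were apart, and each of the other 4 genes had 1 such pair. With 13 small groups ordered by mean, neighbours overlap easily, so this does not say that groups further apart overlapped. Untreated mice had the highest mean for Ifnar1 and Csf2rb, and the lowest means of Csf2rb and Il6ra were in the venetoclax day 7 group.

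**Figure D1:**
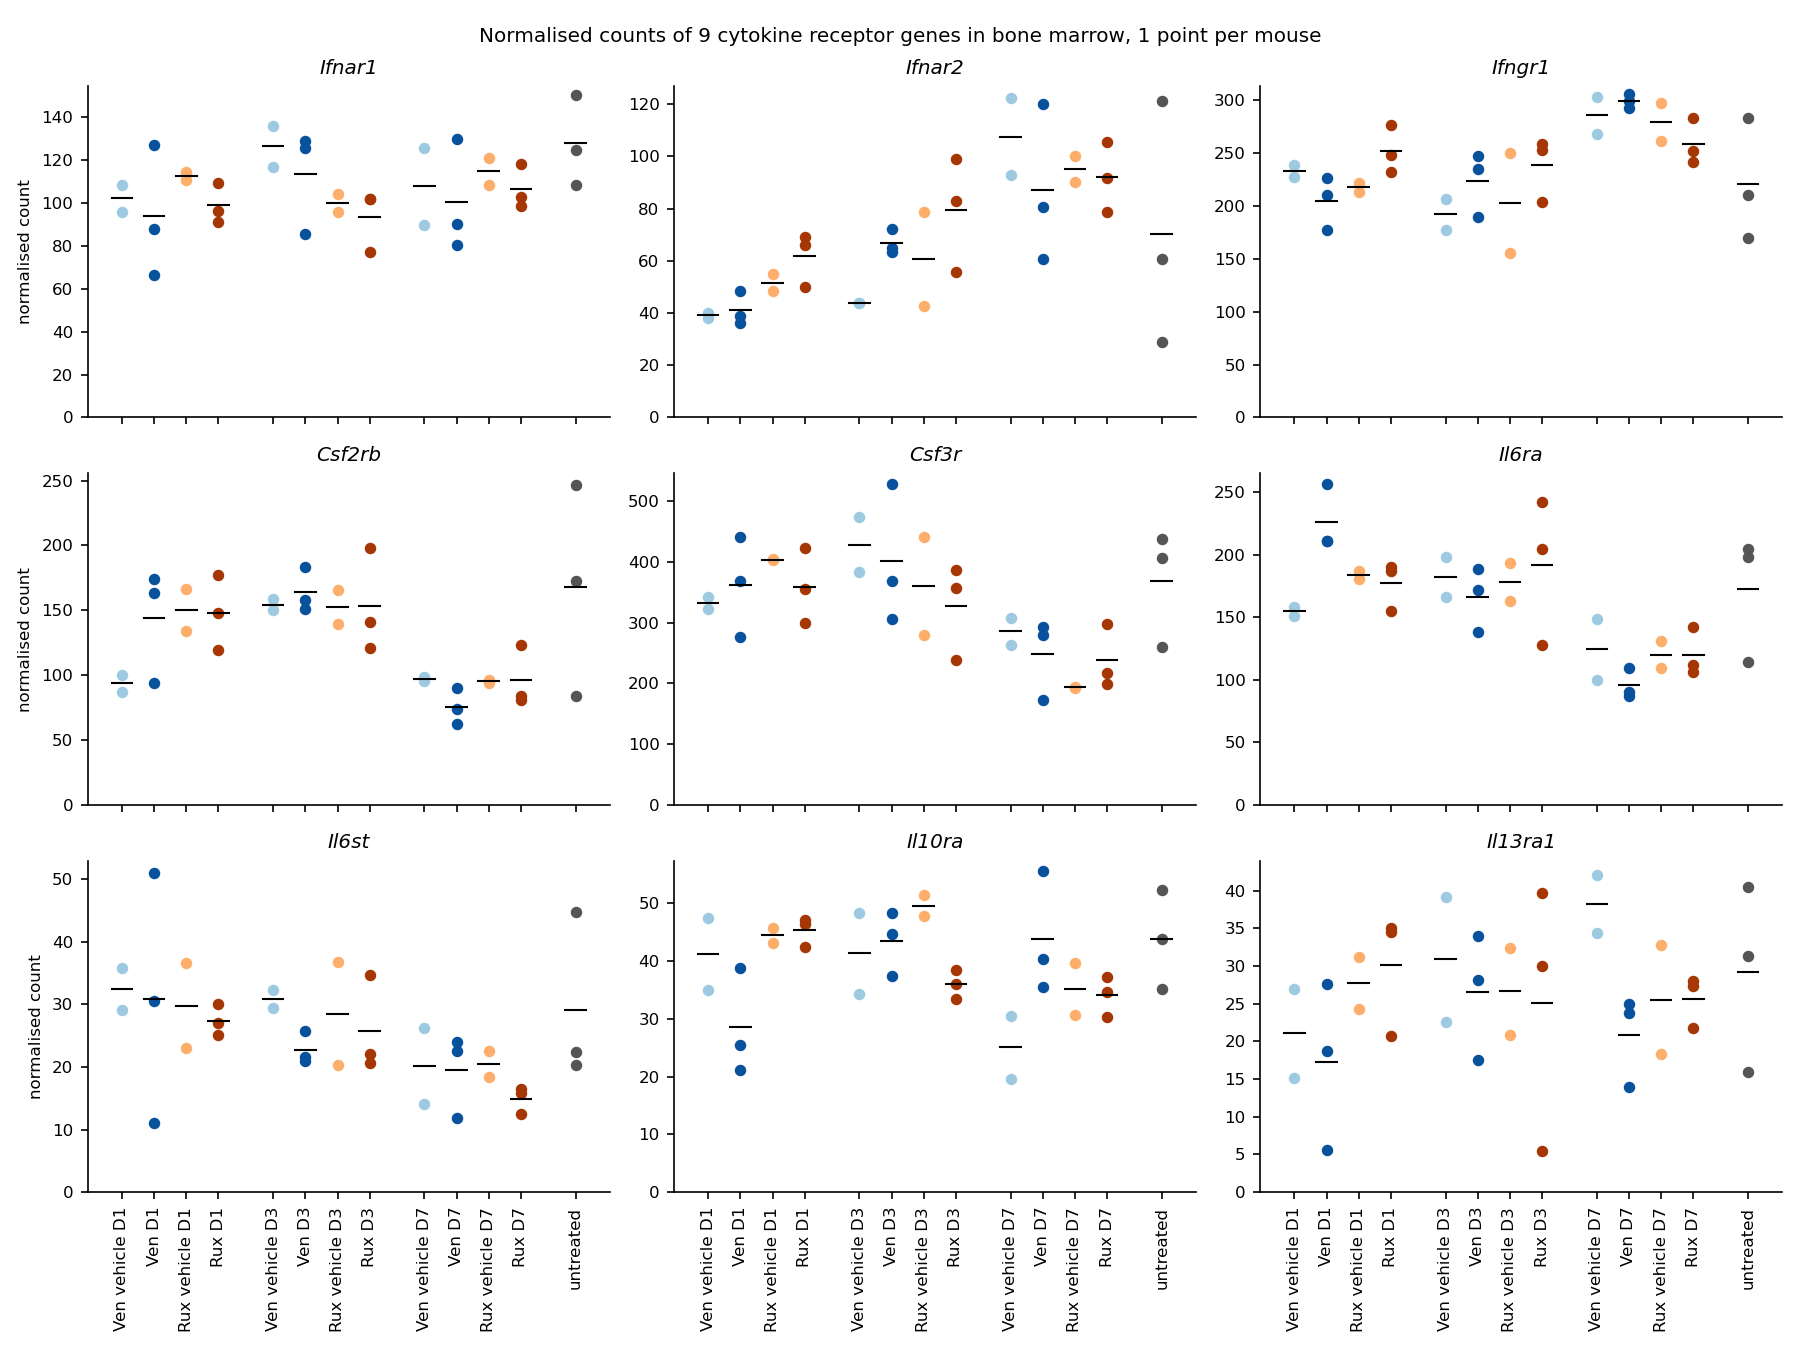
Normalised count (vertical axis, linear and starting at 0) of each receptor gene in each mouse (points) of the 13 groups, with a black line at the group mean (n = 3 for drug and untreated groups, n = 2 for vehicle groups). All 10 drug and vehicle mice of day 7 sit at 86.9 to 149 for Il6ra, below the 151 to 257 of day 1. The Csf2rb of venetoclax vehicle mice is alike on days 1 (100.3 and 86.8) and 7 (98.8 and 95.5).

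The type I interferon receptor was measured through both chains. Ifnar1 is the chain that docks Tyk2. On day 1 its normalised counts were 109, 96.2 and 91.3 in ruxolitinib mice and 114 and 111 in their vehicle mice. Each ruxolitinib mouse had less Ifnar1 than either vehicle mouse, by a narrow gap. The log2 fold change was -0.19 ± 0.23 (SE), with a 95% interval of -0.65 to 0.27 and an adjusted p = 0.759. Over 12 other settings it ran from -0.26 to -0.06. In this comparison 44% of all genes tested had drug and vehicle mice that did not overlap, so such a separation was common. Venetoclax mice had 66.6, 87.8 and 127 on day 1, 129, 126 and 85.7 on day 3 and 90.3, 80.6 and 129.9 on day 7, and their vehicle mice had 96 and 108, then 136 and 117, then 126 and 89.9. These overlapped on every day, and over the 33 mice the gene ranged from 66.6 to 150.4.

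Ifnar2 binds interferon most tightly and docks Jak1. On day 1 it was 38.8, 48.6 and 36.1 in venetoclax mice, 39.9 and 38.2 in their vehicle mice, 69, 66.2 and 49.8 in ruxolitinib mice and 48.5 and 54.8 in theirs. On day 3 the venetoclax mice had 63.6, 64.9 and 72 and their vehicle mice 43.8 and 43.7. The day 3 venetoclax mice were all above both vehicle mice, a separation that 26.1% of all genes showed in that comparison, and the fold change did not pass the test (0.61 ± 0.32 on the log2 scale, 95% interval -0.04 to 1.27, adjusted p = 0.488). It was 0.35 with both vehicles of day 3 pooled. Among these mice the sum of 10 T cell markers was 53.1 to 68 against 91.8 to 127 in vehicle mice, with 9 of 10 at a negative fold change, that of 4 stem and progenitor markers was 96.8 to 138 against 64.6 to 93.3, and that of 3 megakaryocyte markers 144 to 182 against 194 to 229. Of 10 neutrophil markers 9 had a positive fold change, with a median of 0.93 against 0.06 for all genes on the log2 scale and 0 called, while their sums overlapped. Their part in the receptor values of day 3 was not tested. By day 7 venetoclax mice had 60.8, 80.6 and 119.9 and their vehicle mice 122 and 92.7. Ruxolitinib mice had 78.7, 91.6 and 106 on day 7 and their vehicle mice 100.1 and 90.2. Each of the 10 day 7 values was above each of the day 1 values of venetoclax mice and of both vehicle groups, and 1 day 7 value (60.8, venetoclax) was within the range of the ruxolitinib day 1 mice.

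Ifnar2 and Ifnar1 lie close together on chromosome 16 of the mouse, in the protein-coding order Ifnar2, Il10rb, Ifnar1 and Ifngr2, and the correlation of Ifnar1 with Ifnar2 over the 33 mice was -0.02. The promoter of Ifnar2 is shown because its RNA had the widest spread between groups. The 250 bases before its start (RefSeq, GRCm38.p6, chr16:91372533-91372782, plus strand) hold 1 match to the STAT dimer motif GAS (TTCNNNGAA), in capitals, from 214 to 206 bases before the start.

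Ifnar2: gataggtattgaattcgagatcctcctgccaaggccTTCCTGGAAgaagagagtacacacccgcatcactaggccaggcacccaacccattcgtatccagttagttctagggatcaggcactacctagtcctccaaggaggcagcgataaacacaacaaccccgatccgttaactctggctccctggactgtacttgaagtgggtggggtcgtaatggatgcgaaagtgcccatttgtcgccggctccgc

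The motifs searched on both strands of this window were GAS, the interferon response element ISRE (GAAA, any 2 bases, GAAA), PU.1 (GAGGAAG) and C/EBP (TTGCNNAA). Of 32851 promoters of the same length, 7.02% hold GAS, 2.98% ISRE, 10.6% PU.1 and 9.56% C/EBP. Promoters of 7 receptors were in the table, those of Ifnar1, Ifngr1, Il6ra, Il6st and Il13ra1 had no match to any of the 4 motifs, and those of Csf2rb and Il10ra were not printed. A match describes letters in a window and not a site that a factor uses.

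Ifngr1, the ligand-binding chain for interferon-γ, had opposite sides for the drugs on day 1. Ruxolitinib mice had 232, 276 and 248 against 222 and 213 in their vehicle mice, while venetoclax mice had 177, 226 and 210.0 against 228 and 239. All ruxolitinib mice were above and all venetoclax mice below their own vehicle mice, and each gap to the nearest vehicle mouse was small. Drug and vehicle mice were apart for 44% of all genes under ruxolitinib and 27.5% under venetoclax on that day. The log2 fold changes were 0.21 ± 0.21 (SE) for ruxolitinib and -0.17 ± 0.22 for venetoclax, with intervals of -0.21 to 0.64 and -0.61 to 0.28 (edgeR adjusted p = 0.697 and 0.86). The venetoclax value was -0.094 without venetoclax replicate 1, the mouse of lowest depth, and -0.25 without replicate 2 or with total count scaling. The difference between the drugs was -0.38 ± 0.30 with an interval of -0.99 to 0.23, and it did not pass the test (adjusted p = 0.609). On day 3 ruxolitinib mice had 204, 259 and 253 and their vehicle mice 156 and 249.8, and venetoclax mice had 235, 189 and 247 and theirs 178 and 207. On day 7 the ruxolitinib values were 242, 252 and 283 against 262 and 297, and the venetoclax values 306, 299 and 292 against 268 and 303. Drug and vehicle mice overlapped for Ifngr1 in all 4 of these comparisons.

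Among the myeloid growth factor receptors, Csf2rb is the signalling chain shared by the receptors for interleukin-3, interleukin-5 and granulocyte-macrophage colony-stimulating factor. On day 1 it was 94.3, 174 and 163 in venetoclax mice and 100.3 and 86.8 in their vehicle mice. Of the 3 venetoclax mice 2 were above both vehicle mice, and the other, which is the mouse with only 18056 endogenous counts, lay between them. The log2 fold change was 0.70 ± 0.29 (SE), with an interval of 0.10 to 1.30, an unadjusted p = 0.0242 and an adjusted p = 0.353 by edgeR. In ruxolitinib mice of day 1 it was 119, 148 and 177 and in their vehicle mice 134 and 166, and the log2 fold change was -0.03 ± 0.27 (interval -0.57 to 0.52). The ruxolitinib vehicle mice therefore lay at the level of the venetoclax-treated mice, and on day 1 the venetoclax vehicle mice had the lowest Csf2rb of the 4 groups. With both vehicles of day 1 pooled the venetoclax fold change was 0.30 (adjusted p = 0.693). On day 7 the venetoclax mice (62.5, 73.5 and 90.3) were below both vehicle mice (98.8 and 95.5), with a log2 fold change of -0.33 ± 0.30 and an adjusted p = 0.999 (-0.53 without venetoclax replicate 3 and -0.22 without replicate 1). In these day 7 mice 9 of 10 T cell markers had a negative fold change, with a median of -0.80 against -0.01 for all genes on the log2 scale and 0 called. The T cell sums, 49.7 to 97.2 against 96.1 to 154 in vehicle mice, barely overlapped, and their part in the Csf2rb, Il10ra and Il13ra1 values of day 7 was not tested. On day 3 Csf2rb overlapped between drug and vehicle under both drugs, at 184, 158 and 151 in venetoclax mice and 198, 121 and 141 in ruxolitinib mice. Csf2rb2, a near-identical gene beside Csf2rb, was not analysed here, and whether the Csf2rb probe also counts it was not tested.

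Csf3r, the receptor for granulocyte colony-stimulating factor, is the chain most tied to neutrophils. Its day 1 values were 277, 441 and 369 in venetoclax mice, 323 and 343 in their vehicle mice, 423, 299 and 356 in ruxolitinib mice and 405 and 403 in theirs. On day 3 venetoclax mice had 528, 307 and 369 against 474 and 384, and ruxolitinib mice 358, 239 and 387 against 442 and 279.8. Drug and vehicle mice overlapped for both drugs on these days. On day 7 ruxolitinib mice had 218, 199 and 298 and their vehicle mice 195 and 193. All ruxolitinib mice were above both vehicle mice, but 1 of them by only a few counts, and the log2 fold change of 0.27 ± 0.29 (SE) had an interval of -0.31 to 0.85 (adjusted p = 0.999). It turned to -0.04 when both vehicles of day 7 were pooled, since the venetoclax vehicle mice were higher (308 and 264). In the same ruxolitinib and vehicle mice the sum of 10 B cell markers was 468 to 529 against 721 to 727, with 8 of 10 at a negative fold change, and the sum of 5 eosinophil, basophil and mast cell markers was 293 to 304 against 242 to 286. All 10 neutrophil markers had a positive fold change there, with a median of 0.24 on the log2 scale against 0.02 for all genes and 0 called, while the neutrophil sums overlapped. The part of these cells in the Csf3r and Il6st values of day 7 was not tested.

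The promoters of Csf3r and Il6ra are shown because these receptors were lower together on day 7. The Csf3r window (RefSeq, GRCm38.p6, chr4:126024409-126024658, plus strand) holds 1 PU.1 match, in capitals, from 86 to 80 bases before the start, and the Il6ra window (chr3:89913197-89913446, minus strand) holds none of the 4 motifs.

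Csf3r: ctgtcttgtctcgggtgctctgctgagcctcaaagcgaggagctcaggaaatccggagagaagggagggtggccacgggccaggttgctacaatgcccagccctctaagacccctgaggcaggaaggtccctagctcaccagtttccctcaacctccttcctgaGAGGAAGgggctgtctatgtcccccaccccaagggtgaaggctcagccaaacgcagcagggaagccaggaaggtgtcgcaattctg

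Il6ra: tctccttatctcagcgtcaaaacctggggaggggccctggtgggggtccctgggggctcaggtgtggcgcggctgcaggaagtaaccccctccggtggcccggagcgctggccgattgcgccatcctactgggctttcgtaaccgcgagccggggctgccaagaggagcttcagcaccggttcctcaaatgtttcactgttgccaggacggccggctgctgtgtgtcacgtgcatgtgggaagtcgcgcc

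Il6ra binds interleukin-6 and hands it to Il6st, the gp130 chain that many cytokines of the family share. On day 1 Il6ra was 211, 211 and 257 in venetoclax mice and 159 and 151 in their vehicle mice. All 3 treated mice were above both vehicle mice, and they were the highest group mean of the 13 (226 ± 26.4, SD, n = 3). The log2 fold change was 0.55 ± 0.25 (SE), with an interval of 0.03 to 1.06, an unadjusted p = 0.0374 and an adjusted p = 0.417 by edgeR. The B cell sum and the erythroid marker Tfrc of these mice were also apart, with values given under Il10ra below. Ruxolitinib mice of day 1 had 187, 190.0 and 155 and their vehicle mice 180.4 and 187. These groups overlapped, and the log2 fold change of -0.05 ± 0.24 had an interval of -0.54 to 0.43. On day 3 venetoclax mice had 189, 138 and 172 against 198 and 166, so the separation of day 1 was not seen there. On day 7 Il6ra lay between 86.9 and 149 in all 10 drug and vehicle mice, with overlap between each drug and its vehicle.

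Il6st had low counts, with a raw count of 2 to 77. On day 3 venetoclax mice had 20.9, 25.7 and 21.6 and their vehicle mice 32.3 and 29.5, and on day 7 ruxolitinib mice had 16.4, 15.9 and 12.4 and theirs 18.3 and 22.5. In both cases each mouse given the drug had less than either vehicle mouse. Neither fold change passed the test: -0.44 ± 0.33 on the log2 scale for venetoclax (interval -1.10 to 0.23, adjusted p = 0.676) and -0.30 ± 0.35 for ruxolitinib (interval -1.01 to 0.41, adjusted p = 0.999). The ruxolitinib value was -0.72 with limma after background subtraction and -0.52 without vehicle replicate 1. One of the ruxolitinib day 7 mice was not above background, nor was 1 venetoclax mouse on each of days 1 and 7 and 1 ruxolitinib mouse on day 3.

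Il10ra, the receptor chain of a cytokine that restrains myeloid activation, was the only receptor with an unadjusted p under 0.05 against vehicle on more than 1 day, and the direction changed between these days. On day 1 venetoclax mice had 38.8, 25.5 and 21.2 and their vehicle mice 47.5 and 35.1. On day 7 venetoclax mice had 55.6, 40.3 and 35.6 and their vehicle mice 30.5 and 19.7. On day 1, 2 of 3 treated mice were below both vehicle mice and the mouse of lowest depth (7 raw counts) was not. On day 7 all 3 treated mice were above both vehicle mice. Those vehicle mice had the lowest Il10ra mean of the 13 groups (25.1), and their replicate 2 had 7 raw counts. The mean was 43.8 in the venetoclax mice of day 7 and 43.8 in untreated mice. The log2 fold change was -0.65 ± 0.28 (SE) on day 1 with an adjusted p = 0.353, and 0.61 ± 0.27 on day 7 with an adjusted p = 0.847 (0.38 with both vehicles of day 7 pooled). With 1 mouse left out the value ran from -0.86 to -0.42 on day 1, where it was -0.42 without vehicle replicate 1, and from 0.42 to 1.10 on day 7, where it was 1.10 without vehicle replicate 1. The change on day 1 minus that on day 7, a comparison added after the data were seen, was -1.25 ± 0.38 with an interval of -2.04 to -0.47. Its unadjusted p was 0.00258 and its adjusted p = 0.263 by edgeR, with 0% of all genes called and 5.65% at an unadjusted p under 0.05. Over 11 alternative settings this difference ranged from -1.60 to -1.23, with a lowest adjusted p = 0.158. The same contrast between days for ruxolitinib called 0 receptors (1.53% of all genes), with 0 at an unadjusted p under 0.05 (9.62%). For venetoclax it gave 1.03 ± 0.42 for Csf2rb (adjusted p = 0.571) and 0.85 ± 0.36 for Il6ra (adjusted p = 0.686). On day 1 the summed normalised count of 10 B cell markers was 523 to 544 in venetoclax mice and 575 to 721 in their vehicle mice, with 4 of the 10 markers at a positive and 6 at a negative fold change. The 1 erythroid marker, the transferrin receptor gene Tfrc, was apart too (266 to 283 against 417 to 474). On day 7 the B cell sums overlapped (570 to 950 and 797 to 803), while 9 of 10 T cell markers were at a negative fold change. The part of these cells in the Il10ra values, and in the Ifngr1, Csf2rb and Il6ra values of venetoclax mice on day 1, was not tested.

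Under ruxolitinib Il10ra was furthest from its vehicle on day 3, when it was 38.5, 36 and 33.5 in ruxolitinib mice and 51.4 and 47.8 in their vehicle mice, and 1 of these ruxolitinib mice was not above background. All treated mice were below both vehicle mice, with a log2 fold change of -0.48 ± 0.25 (SE), an interval of -0.995 to 0.03 and an adjusted p = 0.997. The sum of 10 B cell markers was 326 to 440 in these ruxolitinib mice and 756 to 769 in their vehicle mice, with 10 of 10 markers at a negative fold change, a median of -0.95 and 1 called lower. The erythroid marker Tfrc was also apart (487 to 641 against 347 to 379). All 10 neutrophil markers had a positive fold change (median 0.25, 0 called), and the part of any of these in the Il10ra values was not tested. On day 1 ruxolitinib and vehicle mice overlapped for Il10ra (47.1, 42.4 and 46.5 against 45.8 and 43.1). On day 7 the venetoclax change minus the ruxolitinib change was 0.75 ± 0.36 on the log2 scale, which did not pass the test (adjusted p = 0.998), and ran from 0.50 without ruxolitinib vehicle replicate 1 to 1.24 without venetoclax vehicle replicate 1.

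Il13ra1 had the lowest counts with Il6st, with raw counts of 1 to 93. On day 7 it was 13.9, 23.7 and 25 in venetoclax mice and 34.4 and 42.1 in their vehicle mice. All venetoclax mice were below both vehicle mice, and the log2 fold change of -0.72 ± 0.38 (SE) was the largest of any receptor against vehicle. Its interval was -1.51 to 0.06 and its adjusted p = 0.999, and the fold change was -0.40 with both vehicles pooled and -1.14 with limma after background subtraction. On day 1 venetoclax mice had 5.55, 18.7 and 27.6 against 27 and 15.1, and the lowest of these rested on a single raw count. Ruxolitinib mice of day 7 had 21.7, 27.3 and 28, within the range of their vehicle mice (18.3 and 32.8).

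Counted over the 9 receptors, 0 had an adjusted p under 0.05 by edgeR against vehicle on day 1, 3 or 7 of venetoclax, where 0.153%, 0% and 0.153% of all genes tested were called, or on day 1, 3 or 7 of ruxolitinib, where 2.75%, 0.153% and 0.153% were called. The first of these ruxolitinib shares is 18 genes, which ran from 4 with limma after background subtraction to 77 with only the groups compared. At an unadjusted p under 0.05 there were 3 receptors on day 1 of venetoclax (10.4% of all genes), 0 on day 3 (10.7%) and 1 on day 7 (4.73%), and 0 for ruxolitinib at any of the 3 times (13.6%, 4.73% and 3.51%). Receptors whose drug and vehicle mice did not overlap numbered 2, 2 and 3 on days 1, 3 and 7 of venetoclax (27.5%, 26.1% and 17.3% of all genes) and 2, 1 and 2 on those days of ruxolitinib (44%, 15.6% and 17.7%). With the 3 days averaged, 0 receptors were called for venetoclax (2.9% of all genes) and 0 for ruxolitinib (1.22%), and 0 differed between the drugs on day 1, 3 or 7 (1.68%, 0.153% and 0.305%). For the drug difference of day 1 the 11 genes called became 0 and 61 under the same 2 settings, and the receptors called stayed at 0. At an unadjusted p under 0.05 these counts were 0 for each drug's mean (9.16% of all genes for venetoclax and 8.85% for ruxolitinib), and 0, 0 and 1 for the difference between the drugs (13.4%, 3.05% and 3.82%). None of 1368 tests of receptors in the planned comparisons passed under 13 other settings, DESeq2 and limma included.

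The intervals say what size of change these mice could have missed. On day 1 of ruxolitinib the fold changes of the 9 receptors ran from -0.19 to 0.24 on the log2 scale, and their 95% intervals together reached from -0.72 to 0.86. The median absolute log2 fold change there was 0.16 for the receptors and 0.33 for all genes. On day 1 of venetoclax it was 0.15 and 0.37, and on day 7 of venetoclax 0.28 and 0.23.

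**Figure D2:**
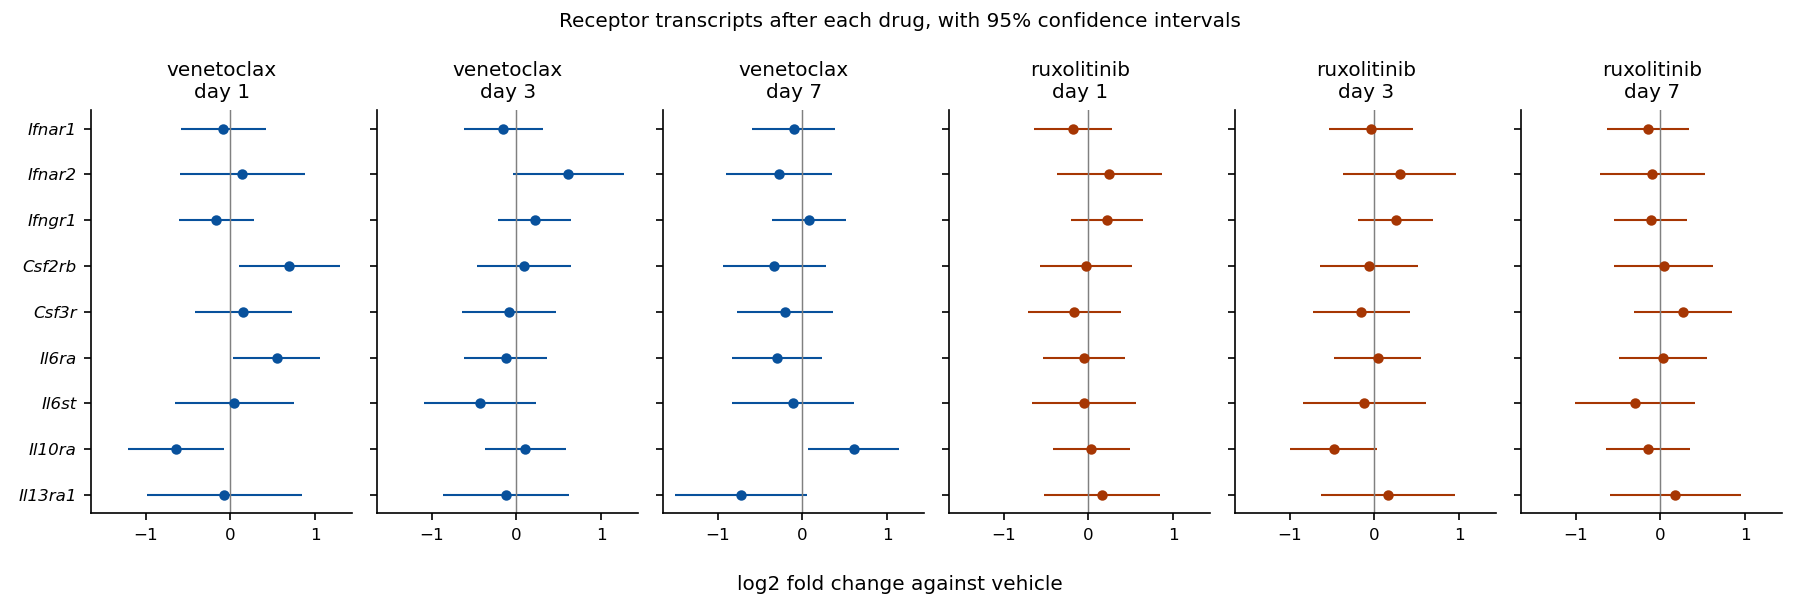
Log2 fold change of each receptor against vehicle (horizontal axis, points) with its 95% confidence interval (lines), for each drug and day (3 drug-treated and 2 vehicle mice each). The intervals of Csf2rb, Il6ra and Il10ra on day 1 and of Il10ra on day 7 of venetoclax exclude 0 before adjustment, and no ruxolitinib interval does.

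The other genes of the pathway were read from lists of ligands, other cytokine receptors, kinases, feedback genes and targets. On day 1 of ruxolitinib 22 of 23 tested interferon targets had a negative fold change, and 11 passed the test as lower. Their median log2 fold change was -1.08, against 0.13 for all genes and -0.03 for the 9 receptors. Ifit3, an interferon-induced antiviral protein, averaged 7.55 in ruxolitinib mice and 52.7 in vehicle mice, a log2 fold change of -2.81 ± 0.39 (SE, edgeR adjusted p = 2.05e-05). Oas2, which makes the messenger that activates RNase L, averaged 10.4 and 44.9 (-2.10 ± 0.31, adjusted p = 3.24e-05). The ubiquitin-like Isg15 was also called lower (adjusted p = 5.49e-05), from a mean of 17.7 in vehicle mice, but only 1 of 3 ruxolitinib mice was above background, so no fold is given. The same held for Oasl1 and Cxcl10 among the 11, named after their values were seen. The count of 11 fell to 7 or 6 without vehicle replicate 1 or 2, to 6 with scaling by total count and to 4 with limma after background subtraction. On days 3 and 7 of ruxolitinib, and on every day of venetoclax, 0 of the 23 were called, and at most 0.153% of all genes. On day 1 of venetoclax Rsad2 (-1.24 ± 0.30, adjusted p = 0.0529) and Isg20 (-0.91 ± 0.24, adjusted p = 0.0552), named after their values were seen, lay just past the threshold, and the calls over all genes in that comparison ran from 0 to 26 over the alternative settings.

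None of the tested genes between cytokine and target passed the test on day 1 of ruxolitinib, where 2.75% of all genes were called. In lists this small 0 calls is near that share. Of 10 kinases and STATs tested (the JAK family and their transcription factors), 0 were called on day 1 of ruxolitinib, and their median log2 fold change was 0.05. The test also called 0 of 7 genes on a list of other cytokine receptors (median -0.12), which held partners of the 9 such as Il4ra and Il3ra but also Csf1r, a receptor with its own kinase domain that does not use JAKs, 0 of 4 feedback genes and adapters such as Socs1 and Usp18 (-0.18) and 0 of 7 targets of the myeloid cytokines (0.03). Those lists also had 0 calls on every other day of either drug, where at most 0.153% of all genes were called. Ifngr2, Il10rb, Csf2ra, Lifr and Osmr, partners of the receptors described, were not analysed here. Of 16 ligand genes 8 exceeded background in 2 or more mice and were tested. Ifnb1 and Ifng each exceeded it in 1 mouse, Ifna1 in 3 and Csf2, Il3, Il4 and Ifna2 in none, whereas Osm, a cytokine that signals through Il6st, exceeded it in 31. None of the 8 was called on any day of either drug, at the same shares of all genes. Of 10 marker sums, 7 did not overlap between ruxolitinib and vehicle mice on day 1. Sums were higher in ruxolitinib mice for 7 stromal and endothelial markers (305 to 338 against 152 to 156), 4 stem and progenitor markers (109 to 131 against 84.2 to 93.1) and 10 T cell markers (89.4 to 98.5 against 82.4 to 84.2). They were lower for 5 eosinophil, basophil and mast cell markers (267 to 397 against 603 to 689) and 10 neutrophil markers (79613 to 93506 against 97148 to 103982). They were also lower for 9 NK cell markers (65.9 to 79.2 against 95.2 to 104.8) and 1 erythroid marker, Tfrc (259 to 355 against 401 to 441). The neutrophil sum is mostly S100a8, and 9 of the 10 neutrophil markers had a positive fold change (median 0.60 on the log2 scale, 0 called). B cell, monocyte and macrophage, and megakaryocyte sums overlapped. Their part in the receptor values was not tested.

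**Figure D3:**
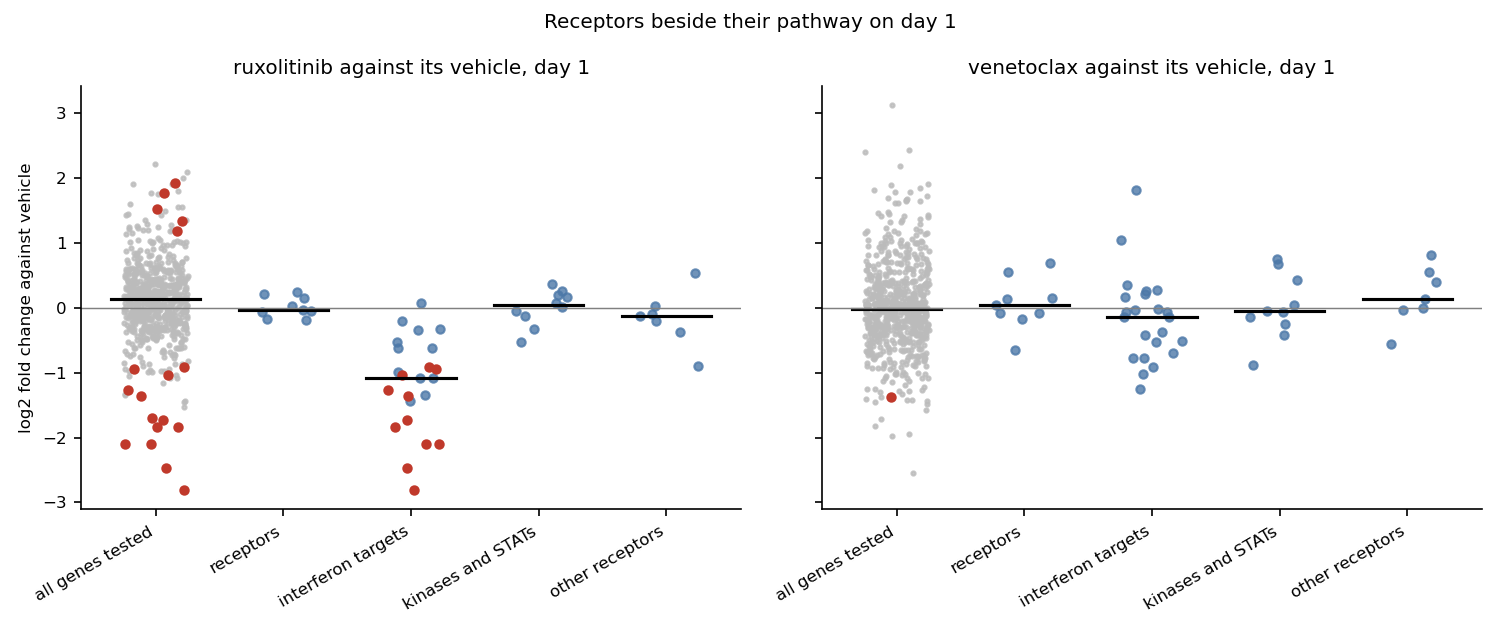
Log2 fold change against vehicle on day 1 (vertical axis) of ruxolitinib (left) and venetoclax (right), 1 point per gene, for all 655 genes tested, the 9 receptors and 3 groups of pathway genes. Red points have an adjusted p under 0.05 and black lines are medians: 11 of 23 interferon targets are red under ruxolitinib, and no receptor is red under either drug. Of all genes tested 2.75% are red under ruxolitinib and 0.153% under venetoclax.

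Vehicle mice were also compared with untreated mice. Of the 9 receptors 8 had a negative log2 fold change in the mean of the 6 vehicle groups, from -0.48 to 0.08 over all 9, and all genes had a median of -0.14. None was called (0% of all genes). Csf2rb had the lowest unadjusted p, with values of 246, 173 and 84.3 in untreated mice and a log2 fold change of -0.48 ± 0.20 (SE, adjusted p = 0.391). The first of these mice had the highest Csf2rb of all 33, and without it the fold change was -0.19. With a different mouse left out it reached -0.76. The untreated mice were spread over the 3 runs, and differences between runs are part of their spread in this model. With the run as a term, a setting added after the data were seen, 0 receptors and 0 of all genes were called, and Csf2rb was at -0.34 (adjusted p = 0.472). The vehicles of the drugs did not differ for any receptor by the test, with 0% of all genes called.

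The mice of day 7 differed from those of day 1 in 6 of the 9 receptors. This comparison took the 4 drug and vehicle groups of each day and was added after the data were seen. Of all genes tested 46% were called in it, and 50.4% had an unadjusted p under 0.05, so a call here was common. Csf2rb, Csf3r, Il6ra and Il6st were lower on day 7, and Ifnar2 and Ifngr1 higher. Day 3 did not differ from day 1 for any receptor (0 of 9, with 0% of all genes called, and 1 of 9 at an unadjusted p under 0.05, with 6.11% of all genes), and day 7 differed from day 3 for 5 (37.6% of all genes), the same genes without Il6st.

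Il6ra ranged from 151 to 257 with a median of 187 among the 10 drug and vehicle mice of day 1, and from 86.9 to 149 on day 7, where the median was 109. The 2 ranges did not overlap. The log2 difference was -0.69 ± 0.13 (SE, edgeR adjusted p = 3.16e-05). Csf3r ranged from 277 to 441 on day 1 (median 362) and from 172 to 308 on day 7 (median 241), a difference of -0.61 ± 0.14 with an adjusted p = 0.000483. Csf2rb went from a median of 141 (range 86.8 to 177) to 92.1 (range 62.5 to 123), a difference of -0.54 ± 0.14 with an adjusted p = 0.00219. Over 11 other settings the Csf2rb difference ran from -0.72 to -0.35, and its call was kept in each. For Csf3r and Csf2rb the days overlapped in some mice. Il6st differed by -0.62 ± 0.17 (adjusted p = 0.00278), from a median of 29.6 to 17.4, and lost this call with limma after background subtraction (-0.84, adjusted p = 0.0673).

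The interferon receptor chains went the other way. Ifnar2 ranged from 36.1 to 69 on day 1 and had a median of 48.6, and from 60.8 to 122 on day 7 where the median was 92.2. The log2 difference of 1.00 ± 0.16 (SE, edgeR adjusted p = 5.17e-06) was the largest of the 9 receptors. Ifngr1 differed by 0.30 ± 0.11 (adjusted p = 0.0221), with medians of 227 and 287. This call was lost with TMM scaling (0.10, adjusted p = 0.526), with all 20 housekeeping probes (0.13, adjusted p = 0.355), with DESeq2 (0.11, adjusted p = 0.443), and without replicate 2 of either vehicle of day 7 (adjusted p = 0.0502 and 0.0517). The median of all genes in this comparison was 0.14 with the housekeeping factor, -0.04 with TMM and 0.34 with the total count. Ifnar1, Il10ra and Il13ra1 did not pass the test, with intervals of -0.15 to 0.33, -0.40 to 0.11 and -0.28 to 0.51.

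In the vehicle groups alone, 3 receptors passed the test between day 7 and day 1: Ifnar2 (1.19), Csf3r (-0.63) and Il6ra (-0.50), where 30.1% of all genes were called. The count was 5 with TMM, with all 20 housekeeping probes or with only the groups compared, 2 with total count scaling, limma or no filter, and 1 with limma after background subtraction. At an unadjusted p under 0.05 there were 4 (39.1% of all genes). The calls of the other 3 genes were lost there, with -0.30 ± 0.22 for Csf2rb (adjusted p = 0.319), -0.52 ± 0.26 for Il6st (adjusted p = 0.128) and 0.32 ± 0.16 for Ifngr1 (adjusted p = 0.149). Venetoclax vehicle mice had a Csf2rb of 100.3 and 86.8 on day 1 and 98.8 and 95.5 on day 7. Untreated mice were measured 1 in each run. In the runs of days 1, 3 and 7 the untreated mouse had an Ifnar2 of 28.8, 60.5 and 121, a Csf2rb of 246, 173 and 84.3 and an Il6ra of 198, 205 and 114.6. Csf3r was 438, 406 and 259.6, Il6st 44.8, 22.4 and 20.2 and Ifngr1 169.6, 209.9 and 283 in the same 3 mice. For each of the 6 genes the untreated mouse of the day 7 run was beyond both other untreated mice, on the side of the day 7 groups. The median endogenous total was 176425 counts in the run of day 1, 147603 in that of day 3 and 66683 in that of day 7, and the median positive control total was 8623, 10126 and 9781.

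The pathway lists are set here against the 46% of all genes called between day 7 and day 1, and the shares of the other cytokine receptors and the interferon targets were near it. Of the 10 kinases and STATs 5 were higher and 2 lower on day 7, with Tyk2 at -1.23, Stat3 at 1.17 and Jak3 at -0.83 on the log2 scale. Of the 7 other cytokine receptors Il11ra1 (-1.35) and Il4ra (-0.43) were lower, and Csf1r (0.44), the receptor tyrosine kinase for macrophage colony-stimulating factor, was higher. Of the 8 ligands tested Csf3, the ligand of Csf3r, was lower (-0.91), a share below that of all genes. Csf3 exceeded background in 5 of the 10 drug and vehicle mice of day 7, as Il11ra1 did in 6. Of the 23 interferon targets 10 were higher and 2 lower. The day 1 groups include the ruxolitinib mice in which 11 of these targets were lower than in vehicle mice. In the vehicle groups alone, where 30.1% of all genes were called, the balance turned, with 2 higher and 6 lower. Irf7 (0.91) was among the higher, and Ifit3 (-1.38) and Oas2 (-0.88) were among the lower. There 3 kinases and STATs were called higher and 2 lower, and 0 and 1 of the other cytokine receptors. Neutrophil markers did not move as 1 group: Elane (2.14), Mpo (1.45) and Cxcr2 (1.18) were among 9 of 10 that passed the test as higher, and S100a8 was lower (-0.88), genes named after their values were seen. The neutrophil sum, which S100a8 weighs on most, had a median of 95173 in the run of day 1 and 65626 in that of day 7, and the sum of 11 monocyte and macrophage markers one of 690 and 959. The sum of 4 stem and progenitor markers had a median of 93.1 (48.8 to 144) in the run of day 1 and 192 (144 to 211) in that of day 7, and that of 5 eosinophil, basophil and mast cell markers one of 524 and 304. Their part in the receptor values was not tested.

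**Figure D4:**
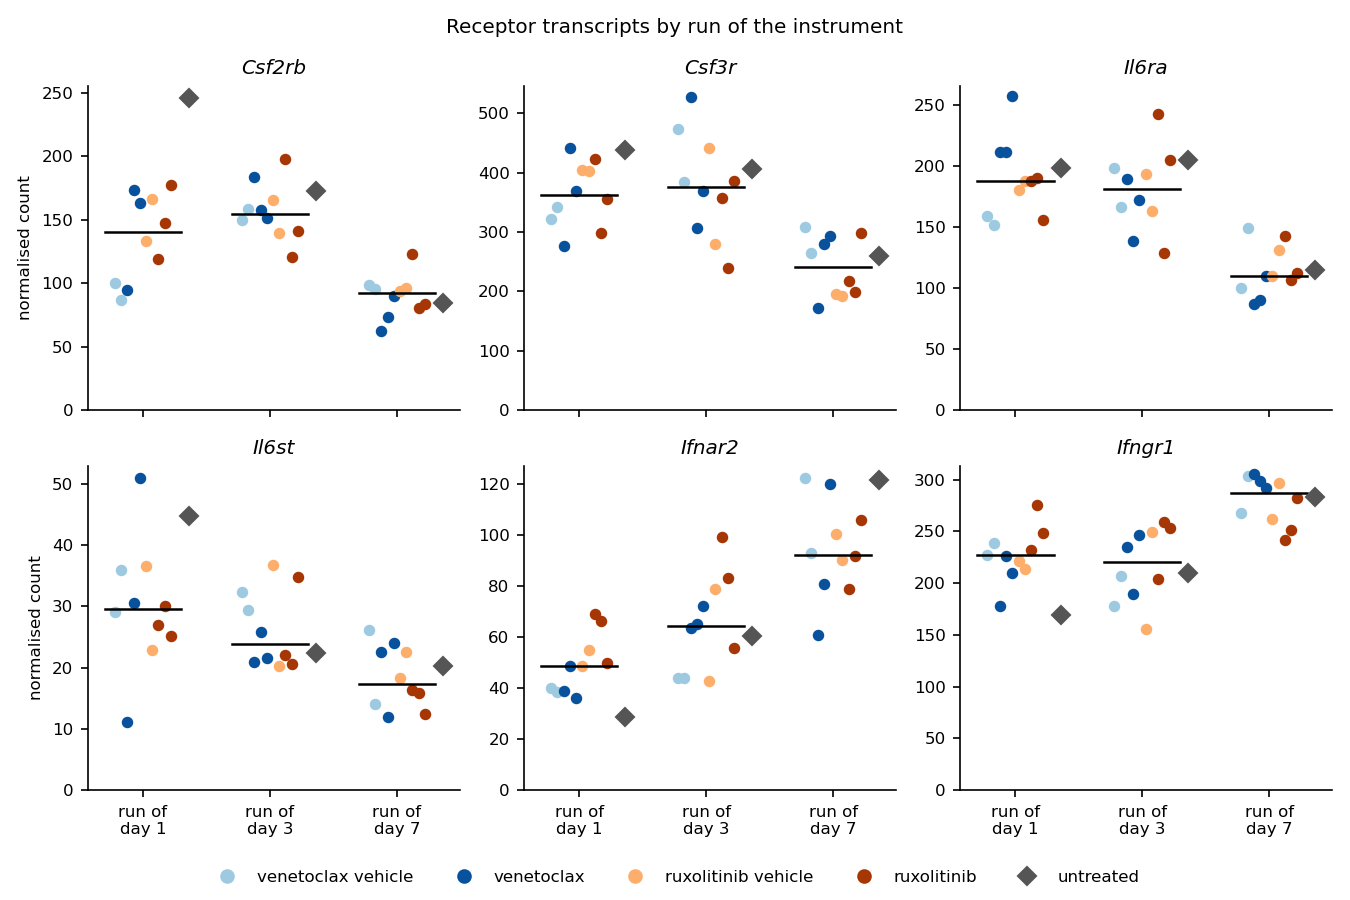
Normalised count (vertical axis, linear and starting at 0) of the 6 receptors that differed between day 7 and day 1, by run. A run is the set of mice whose file headers name the same day (1 run per day). Circles are the 10 drug and vehicle mice of a run by treatment, lines their median, and diamonds the untreated mouse of that run. On day 7 the untreated mouse is within the range of those 10 mice for all 6 genes. On day 1 it is outside that range for Ifnar2 (28.8), Ifngr1 (169.6) and Csf2rb (246).

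Over the 33 mice 2 sets of receptors varied together. Among Csf2rb, Csf3r, Il6ra and Il6st the 6 correlations of log2(normalised count + 1) were 0.49 to 0.79, and Ifnar2 with Ifngr1 gave 0.69. With the mean of each run removed the first set had correlations of 0.07 to 0.51 and the second pair 0.49. The strongest pair within runs was Il6st with Ifnar1, at 0.64. Points share the housekeeping factor of a mouse and, over all mice, the run, so these values are a description.

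Among the 354 genes whose mean normalised count reached 20, the genes whose pattern was most like each receptor are named here as neighbours in the same 33 mice. For Csf3r they were S100a8 (r = 0.87) and the leukocyte phosphatase Ptprc (0.85), for Csf2rb the kinase Tyk2 (0.86) and the urokinase receptor Plaur (0.84), and for Il6ra Igf1r (0.88) and Tnfrsf1b (0.87). Il6st was closest to Irf2 (0.77) and Itch (0.77). Ifnar2 was closest to Lamp1 and Lcp1 (both 0.88), and the lectin Clec7a (0.88) was among the 2 closest to Ifngr1. Cd37 (0.61) was among the 2 closest to Ifnar1. Il10ra was closest to Pecam1 (0.59) and Ets1 (0.56), and Il13ra1 to Ccr7 (0.70) and Apoe (0.64). Run means were not removed from the correlations with these neighbours, so differences between runs are part of them.

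**Figure D5:**
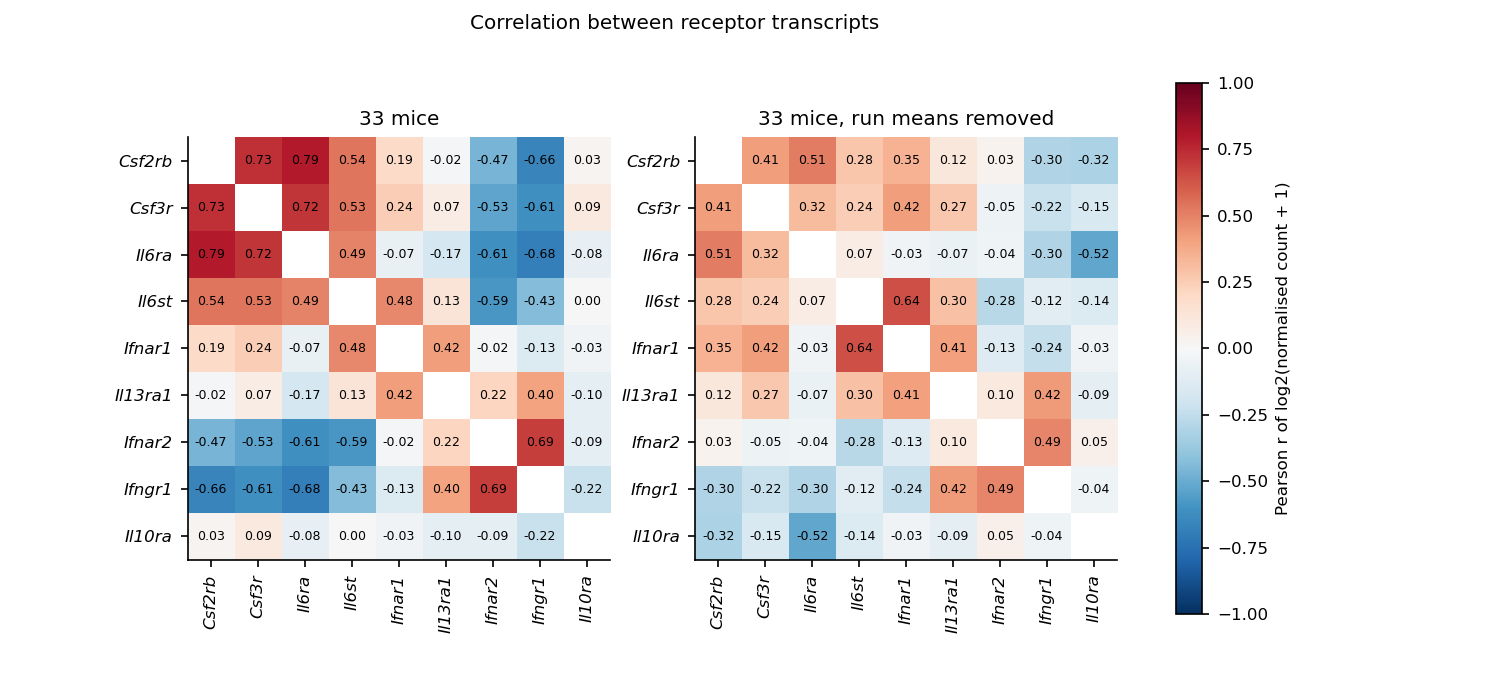
Pearson correlation between the 9 receptor genes over 33 mice (left) and after the mean of each run was subtracted (right), on log2(normalised count + 1), from -1 (blue) to 1 (red). The block of Csf2rb, Csf3r, Il6ra and Il6st is at 0.49 to 0.79 on the left and 0.07 to 0.51 on the right.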

How the data were processed

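RNA of whole bone marrow from 33 mice was counted on the nCounter. The deposited files hold raw barcode counts per lane, and no normalisation by the authors was applied to these counts. The nCounter Advanced Analysis 2.0.115 that the methods name was not used here. A housekeeping factor for every lane came from the geometric mean of 11 of 20 housekeeping probes, those that exceeded background (mean plus 2 SD of the 8 negative probes) in every lane. The test took the 655 of 750 genes that exceeded background in 2 or more lanes. One edgeR 4.0.16 quasi-likelihood model with 13 group means (R 4.3.3) was fitted, with Benjamini-Hochberg adjustment over the 655 genes and a threshold of 0.05. limma 3.58.1, DESeq2 1.42.0 and other scalings and filters were alternatives. The 9 receptors were all named, as were up to 3 called genes per pathway list and comparison, smallest p first, and the 2 genes most correlated with each receptor, of which some are not reported here. The members and lists were chosen with earlier results of these data known. Intervals assume the model's spread, and low counts limit Il6st and Il13ra1 most.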

Additional observations from a re-analysis of the deposited data

How the results depend on the processing

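No receptor was called against vehicle under any alternative run or with any 1 mouse left out. Small fold changes changed sign. For ruxolitinib on day 1, Csf2rb was 0.092 with total count scaling and 0.27 with pooled vehicles (-0.18 to 0.15 with 1 mouse left out), Il6ra was 0.073 and 0.064 (-0.10 to 0.036), and Il6st was 0.051 with total counts (-0.42 to 0.25). Il10ra was -0.033 with TMM, -0.0013 with 20 housekeeping probes and -0.038 with DESeq2 (-0.015 to 0.079), and Il13ra1 ranged from -0.043 to 0.36 with 1 mouse left out. On day 7 Csf3r was -0.043 with pooled vehicles (0.10 to 0.39 with 1 mouse left out). For day 7 against day 1, TMM, 20 housekeeping probes and DESeq2 gave -0.098, -0.078 and -0.083 for Ifnar1 and -0.056, -0.039 and -0.041 for Il13ra1, and total counts gave 0.058 for Il10ra. The cause was not tested. In that comparison 3 receptors in place of 6 were called in vehicle groups alone, where fewer mice were compared, and 1 to 5 there under the other settings. The 11 interferon targets lower on day 1 of ruxolitinib became 6 with total counts and 4 with limma after background subtraction, and 6 to 11 with 1 mouse left out. Correlations of the deviations of mice with the same replicate number ran from -0.39 to 0.52. Both pairs were positive on day 3 of ruxolitinib (0.23 and 0.52). They were also positive on day 1 of venetoclax (0.08 and 0.03) and day 7 of ruxolitinib (0.04 and 0.009). Both were negative on day 3 of venetoclax (-0.02 and -0.39), and the other comparisons had pairs of either sign. The numbers were not taken as pairs. With the replicate number as a block 0 receptors were called against vehicle and 6 between day 7 and day 1. Depth limits Il6st, Il13ra1 and Il10ra, which were not above background in 4, 3 and 1 mice.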
